A study of Mus musculus with 6 samples.

Results

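The genes described here carry out peptide presentation by major histocompatibility complex (MHC) class I. They are the heavy chains H2-K1 and H2-D1, the light chain B2m (beta-2 microglobulin), the peptide transporter subunits Tap1 and Tap2, the loading chaperone Tapbp (tapasin), and Nlrc5, a coactivator of class I transcription. Members were taken by name: every probe set that carried 1 of these symbols and no other in the array's annotation. This gave 23 of the 45037 probe sets measured and 7 of 18193 genes. H2-D1 had 9 probe sets, H2-K1 and Tap1 had 4 each, B2m and Tapbp had 2 each, and Tap2 and Nlrc5 had 1 each. The rule goes by gene symbol and uses no measured value.

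The cells were haematopoietic stem cells (HSCs) from the bone marrow of SCL-tTA H2B-GFP mice. In these mice the transactivator tTA-S2, made from the endogenous scl locus, drives histone H2B fused to green fluorescent protein (GFP) through a tetracycline-responsive element. Doxycycline stops that synthesis, and each later division dilutes the label. All 6 samples, controls included, carried both transgenes, came after 170 days of doxycycline and were sorted as lineage-negative, Sca1+, cKit+, CD150+, CD48-negative and CD34-negative cells. The 3 LRC (label-retaining cell) samples were GFP+ and the 3 non-LRC samples were GFP-negative. The labels call the 3 samples of a condition independent without saying that they came from separate mice, so p-values measure the spread between these samples, part of which may be technical. The age of the mice, pooling of animals and the H2 haplotype are not given in the sources used here. Because the scl locus drives the label, a GFP-negative cell may have diluted it or may never have made it.

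Each sample was hybridized to 1 array, and values are log2 expression, so that a difference of 1 is a 2-fold change. Array medians lay between 4.33 and 4.39 and lower quartiles between 2.82 and 3.02. The 9 hybridization control probe sets, which detect spiked-in transcripts, averaged 11.06 on LRC 1 and 10.79 on LRC 3, against 10.35 to 10.50 on the other 4 arrays. Control probe sets at either end of Actb and Gapdh gave a 3' minus 5' signal of 2.06 on LRC 1. On the other arrays that signal was 1.25 to 1.62. The 7 measured stem cell genes (among them Kit, Slamf1, Procr, Hlf and Mecom) had mean levels of 9.38 to 9.74 in LRC and 9.29 to 9.53 in non-LRC, and none averaged below the array median. Cd48, negative in the gate, lay between 2.34 and 3.27 on every array. Cd34, also negative in the gate, was above the array median on all arrays except LRC 1 (2.52).

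MHC class I molecules display short peptides from the cell's own proteins to CD8 T cells and are sensed by natural killer cells. Peptides cut by the proteasome enter the endoplasmic reticulum through the Tap1 and Tap2 transporter, tapasin holds an empty heavy chain and B2m next to it, and the loaded complex moves to the surface. Nearly all nucleated cells make class I, and interferons raise its transcription, in which Nlrc5 works with the RFX, CREB/ATF and NF-Y factors bound to an upstream module of S, X and Y boxes. In the mouse, Tapbp, H2-K1, Tap1, Tap2 and H2-D1 lie in this order in the H2 complex on chromosome 17. Tap1 and Tap2 sit among the immunoproteasome genes there, with 0 protein-coding genes between Psmb9 and Tap1, Tap1 and Psmb8, or Psmb8 and Tap2.

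The sequences upstream of the start sites are shown because the members share regulators and differ in which recognition letters they hold. RefSeq windows of assembly GRCm38.p6 were given for 5 of the 7 genes: H2-K1, H2-D1, B2m, Tap1 and Tapbp. In each line below capitals mark matches, on either strand, to the Y box core CCAAT, the CRE-like X2 letters TGACGC or TGACGNCA, the interferon-stimulated response element core (GAAA, any 2 bases, GAAA), the palindromic kappaB site of enhancer A (GGGGA, any base, TCCCC), or the general kappaB letters (GGG, any 2 bases, TTTCC). The last base of each of the first 4 lines lies next to the annotated start.
H2-D1, chr17:35262844-35263093, plus strand: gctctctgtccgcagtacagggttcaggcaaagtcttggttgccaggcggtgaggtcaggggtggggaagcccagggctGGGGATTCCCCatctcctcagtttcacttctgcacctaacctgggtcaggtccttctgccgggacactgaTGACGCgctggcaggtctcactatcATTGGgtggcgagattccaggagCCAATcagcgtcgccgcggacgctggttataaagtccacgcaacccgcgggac
B2m, chr2:122147437-122147686, plus strand: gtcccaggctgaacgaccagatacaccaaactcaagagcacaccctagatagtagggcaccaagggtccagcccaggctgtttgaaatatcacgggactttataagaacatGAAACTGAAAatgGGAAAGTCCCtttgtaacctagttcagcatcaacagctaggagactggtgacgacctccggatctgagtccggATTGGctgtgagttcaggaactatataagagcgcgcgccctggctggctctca
Tap1, chr17:34187331-34187555, plus strand: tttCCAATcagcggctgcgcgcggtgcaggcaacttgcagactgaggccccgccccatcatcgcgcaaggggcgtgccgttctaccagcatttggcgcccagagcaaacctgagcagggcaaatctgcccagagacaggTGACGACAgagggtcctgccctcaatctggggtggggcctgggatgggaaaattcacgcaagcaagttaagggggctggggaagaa
Tapbp, chr17:33919228-33919477, plus strand: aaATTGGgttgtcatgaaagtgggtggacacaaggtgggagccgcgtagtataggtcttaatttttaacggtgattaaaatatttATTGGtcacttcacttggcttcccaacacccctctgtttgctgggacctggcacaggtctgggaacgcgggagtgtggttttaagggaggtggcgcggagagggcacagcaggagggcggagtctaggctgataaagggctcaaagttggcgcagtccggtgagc
H2-K1 enhancer A, chr17:34000439-34000468, minus strand: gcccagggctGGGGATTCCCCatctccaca

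The heavy chain genes held the same set of letters. In H2-D1 the enhancer A palindrome, the X2 letters TGACGC and 2 Y box cores followed each other towards the start, with first bases at -171, -101, -76 and -53. H2-K1, shown only around its enhancer A because a longer RefSeq range of the gene runs upstream, had the same letters in the same order before the downstream one of its 2 annotated starts, at -125, -55, -30 and -6. The best local alignment of the H2-K1 and H2-D1 windows, scored 1 for a match, held 161 identical bases in 177 aligned columns. Among 32851 RefSeq windows of 250 upstream bases, 0.0457% held the palindrome and 6.12% held TGACGC. B2m had the interferon element core and the general kappaB letters 3 bases apart, which 2.98% and 1.41% of windows held, and 1 Y box core. The Tap1 window is the 225 bases that separate it from Psmb9, which is read the other way, and it held the octamer TGACGNCA (2.75% of windows) and a Y box core. Tapbp held 2 Y box cores, letters that 33.8% of windows hold, and none of the other 5 patterns. These matches describe the printed windows and were not tested as binding sites.

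**Figure D1:**
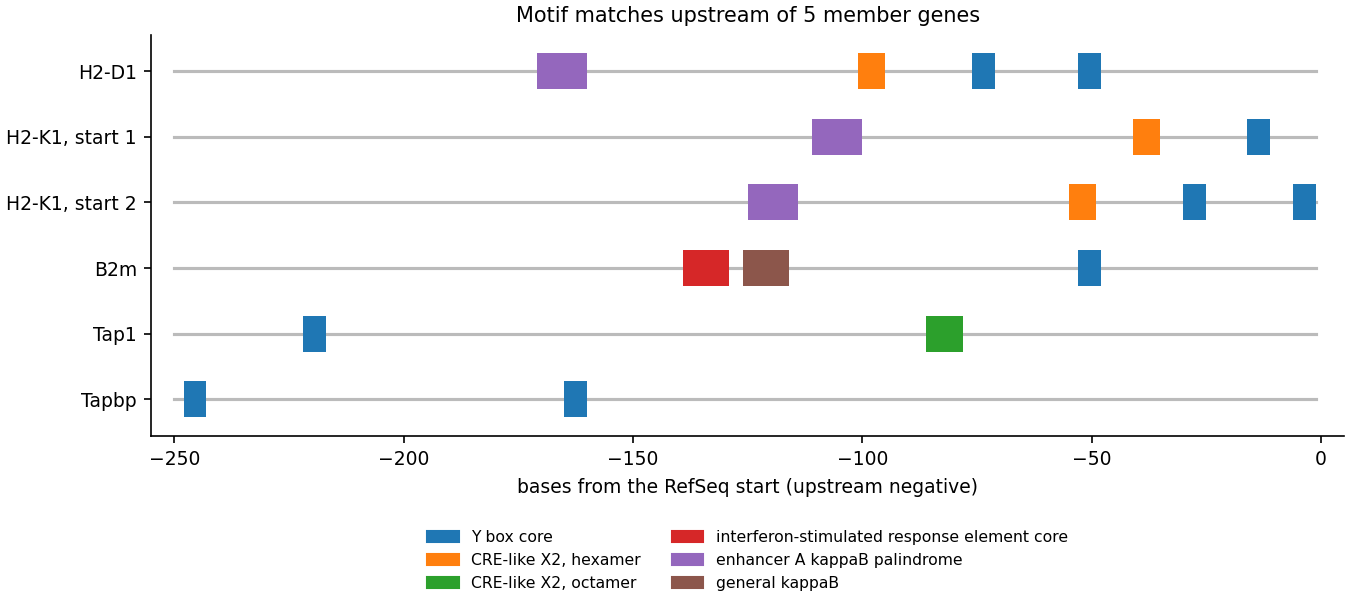
Matches to 6 motifs along the 250 bases upstream of the RefSeq starts of 5 genes; the x axis is the distance from the start in bases and coloured blocks are matches on either strand. The order of enhancer A, X2 and Y box matches is shared by H2-D1 and the downstream H2-K1 start, while Tapbp has 2 Y box matches only.

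No member gene passed the test between LRC and non-LRC. Limma called 0 of the 23 member probe sets at an adjusted p under 0.05, as it did 0% of all probe sets, and the members' adjusted p ran from 0.998 to 1.00. At an unadjusted p under 0.05 there were 0 members, against 3.71% of all 45037 probe sets (1673 of them). That p together with a difference of at least 2-fold was met by 0 members and by 1.72% of all. Of the 7 genes, Tapbp was the one whose LRC values all lay above its non-LRC values on every probe set. Among the brightest probe sets of the genes, that of B2m had the smallest SD within groups. On their probe sets of highest mean Nlrc5, Tap1 and Tap2 had lower means in LRC, with the lowest value on LRC 1 or LRC 3, while 2 of the 3 other Tap1 probe sets had higher means.

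H2-K1 encodes the K heavy chain. Its brightest probe set, 1425336_x_at, read 11.56, 11.94 and 11.75 in non-LRC 1 to 3 and 11.65, 11.92 and 11.80 in LRC 1 to 3. The ranges overlapped almost fully. The difference was 0.04 (SE 0.19, 95% interval -0.43 to 0.51, limma adjusted p = 0.999). Its sign turned when non-LRC 1 or LRC 2 was left out.

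The other H2-K1 probe sets did not point one way. On 1451931_x_at the non-LRC values were 9.81, 10.03 and 9.77 and the LRC values 10.13, 10.40 and 10.03, a difference of 0.31 (SE 0.20). The groups met there at LRC 3 and non-LRC 2, both at 10.03, and every other LRC value was higher than every non-LRC value. On 1427746_x_at the non-LRC values were 10.78, 10.98 and 10.44 and the LRC values 9.90, 11.03 and 10.49, a difference of -0.27 (SE 0.33). LRC 1 was the low array on that probe set, and without it the difference was 0.02. The dim probe set 1450534_x_at differed by 0.06 (SE 0.20).

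H2-D1, the D heavy chain, had a higher mean in LRC on all 9 of its probe sets, with differences from 0.0017 to 0.51. On 1425614_x_at and 1451934_at the sign turned under 7 alternative settings each, as far as -0.21 and -0.39. On 1452544_x_at it turned under 2, as far as -0.059. The brightest, 1426324_at, read 10.37, 11.27 and 11.35 in non-LRC and 11.92, 11.38 and 11.21 in LRC. Here non-LRC 1 was the lowest array and LRC 1 the highest, and the other 4 lay between 11.21 and 11.38. The difference was 0.51 (SE 0.34, interval -0.32 to 1.34, adjusted p = 0.998), and it was 0.20 without non-LRC 1 and 0.30 without LRC 1.

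Other bright H2-D1 probe sets gave smaller differences with less spread. On 1451784_x_at the values were 9.72, 9.85 and 9.66 in non-LRC and 10.07, 10.22 and 9.83 in LRC, a difference of 0.29 (SE 0.19). On 1425545_x_at they were 10.09, 10.31 and 10.04 in non-LRC and 10.27, 10.54 and 10.19 in LRC, a difference of 0.18 (SE 0.19). LRC 3 fell inside the non-LRC range on both, as LRC 1 did on the second. The H2-D1 probe set whose groups were apart was a dimmer one, 1427651_x_at, at 5.77, 5.35 and 5.80 in non-LRC and 6.02, 5.90 and 6.27 in LRC. Its difference of 0.42 (SE 0.22, interval -0.10 to 0.95) did not pass either (adjusted p = 0.998). The remaining 5 H2-D1 probe sets differed by 0.0017 to 0.31.

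The heavy chain readings are not independent of each other. Of the 13 H2-K1 and H2-D1 probe sets, 11 have identifiers ending in _x_at, the array's mark for probes that also match other transcripts. RefSeq lists H2-D1 among the synonyms of H2-K1, and H2-K1 among those of H2-D1. How much of a reading belongs to which heavy chain, or to a non-classical one, is therefore uncertain. Over these 13 probe sets 12 had a higher mean in LRC, as 55.3% of all probe sets did. Of the 12, 5 turned sign under at least 1 alternative setting. For 1 of the 13 all LRC values lay above all non-LRC values, as they did for 4.88% of all probe sets. The median difference was 0.18, against 0.04 over all probe sets. The 6 probe sets averaging at least 9 had a joint mean of 10.54 ± 0.17 in non-LRC and 10.72 ± 0.17 in LRC (SD, n = 3). Their array means were 10.39, 10.73 and 10.50 in non-LRC and 10.66, 10.91 and 10.59 in LRC, so that the groups overlapped.

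B2m is the invariant light chain without which heavy chains do not reach the surface stably. On the brightest probe set of each of the 7 genes, B2m had the smallest within-group SD. Probe set 1449289_a_at read 12.39, 12.55 and 12.38 in non-LRC and 12.29, 12.50 and 12.38 in LRC. Its groups overlapped and its difference was -0.05 (SE 0.17, interval -0.47 to 0.37, adjusted p = 0.998). On 1452428_a_at the values were 12.03, 12.30 and 12.11 in non-LRC and 12.01, 12.14 and 12.03 in LRC, a difference of -0.08 (SE 0.18). The within-group SD was 0.10 and 0.11, where the median of all probe sets was 0.36. The part of the high signal level in that spread was not tested. Both intervals exclude a 2-fold change, as those of 18 of the 23 member probe sets did and those of 54.6% of all probe sets.

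**Figure D2:**
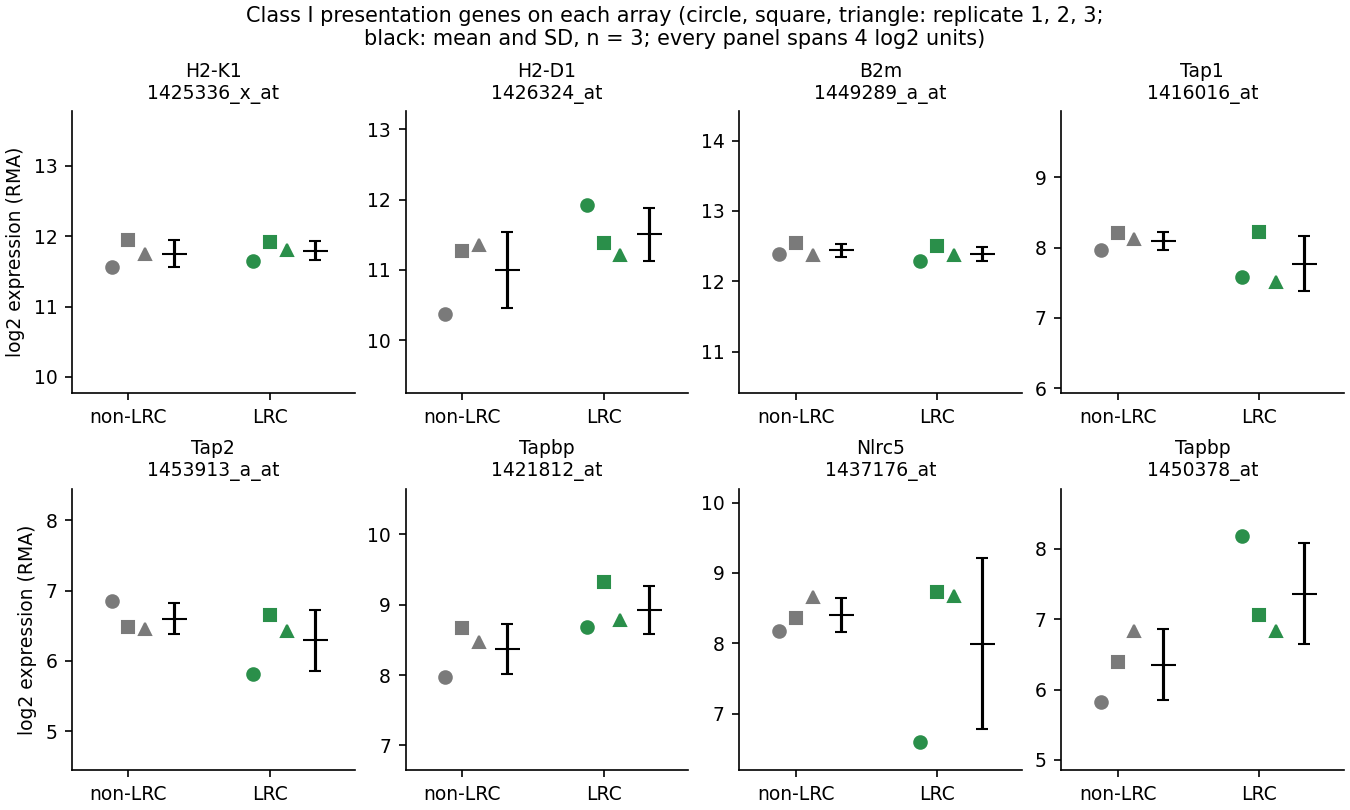
Log2 expression on each array for the brightest probe set of each of the 7 genes, and for the other Tapbp probe set; symbols are replicates 1 to 3 and do not pair samples, black bars are means with SD (n = 3), and every panel spans 4 log2 units. B2m and H2-K1 are nearly level, Tapbp lies higher in LRC in both panels, and the LRC 1 value of Nlrc5 (6.59) lies below all others.

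Tap1 and Tap2 form the transporter that moves peptides into the endoplasmic reticulum. On its brightest probe set, 1416016_at, Tap1 read 7.96, 8.21 and 8.12 in non-LRC and 7.59, 8.22 and 7.51 in LRC. LRC 1 and LRC 3 lay below every non-LRC array, and LRC 2 lay above all of them. The difference was -0.33 (SE 0.25, interval -0.92 to 0.27, adjusted p = 0.998). LRC 1 and LRC 3 are the arrays with bright hybridization controls; with the control level as a covariate the difference was 0.03, and their part in the result cannot be told apart from the samples themselves.

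The other Tap1 probe sets were dim. On 1448177_at values ran from 4.75 to 5.39 with a difference of -0.03 (SE 0.22), and 1449803_x_at (2.03 to 2.32) and 1420274_at (1.70 to 2.04) lay below the lower quartile of each array. On 1420274_at all LRC values (2.04, 1.93 and 1.87) lay above all non-LRC values (1.77, 1.70 and 1.71), a difference of 0.22 (SE 0.17) at a level below the array's lower quartile. Tap2, on its single probe set 1453913_a_at, read 6.86, 6.48 and 6.46 in non-LRC and 5.81, 6.65 and 6.43 in LRC. LRC 1 was the low array, and the difference of -0.30 (SE 0.28, interval -0.97 to 0.36) was -0.06 without it.

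Tapbp, the tapasin that bridges the transporter and the empty heavy chain, was the member with the largest difference in means. On 1421812_at it read 7.97, 8.67 and 8.47 in non-LRC and 8.68, 9.32 and 8.78 in LRC. All LRC values lay above all non-LRC values, though LRC 1 and non-LRC 2 were nearly equal (8.68 and 8.67). Non-LRC averaged 8.37 ± 0.36 and LRC 8.93 ± 0.34 (SD, n = 3), a difference of 0.56 or 1.47-fold (SE 0.28, interval -0.12 to 1.23, unadjusted p = 0.0905, adjusted p = 0.998). It was 0.36 without non-LRC 1 or without LRC 2, and 0.68 without LRC 1.

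The other Tapbp probe set, 1450378_at, read 5.83, 6.39 and 6.83 in non-LRC and 8.18, 7.06 and 6.84 in LRC. Its groups also did not overlap, with LRC 3 and non-LRC 3 nearly equal (6.84 and 6.83) and LRC 1 far above the rest. Non-LRC averaged 6.35 ± 0.51 and LRC 7.36 ± 0.72, a difference of 1.01 or 2.01-fold (SE 0.43, interval -0.04 to 2.06, unadjusted p = 0.0571, adjusted p = 0.998). Without LRC 1 it was 0.60, without non-LRC 1 it was 0.75 and without LRC 3 it was 1.27. The array that read highest therefore differed between the probe sets, LRC 2 on the first and LRC 1 on the second.

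Nlrc5, the class I transactivator, had 1 probe set, 1437176_at, at 8.18, 8.36 and 8.66 in non-LRC and 6.59, 8.73 and 8.67 in LRC. LRC 1 stood 1.59 below the next array, a 3.01-fold gap, while LRC 2 and LRC 3 were the highest of all 6. Non-LRC averaged 8.40 ± 0.24 and LRC 8.0 ± 1.22, a difference of -0.40 (SE 0.59, interval -1.83 to 1.03, adjusted p = 0.998). Without LRC 1 the difference turned to 0.30. With the 3' minus 5' signal of Actb and Gapdh, highest on LRC 1, as a covariate it was -0.09. The part of that signal in the Nlrc5 value was not tested. On their brightest probe sets LRC 1 was also the lowest of the 6 arrays for Tap2 (5.81) and B2m (12.29, with the other arrays at 12.38 or more) and the second lowest for Tap1 (7.59) and H2-K1 (11.65), whereas it was the highest for H2-D1 (11.92).

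**Figure D3:**
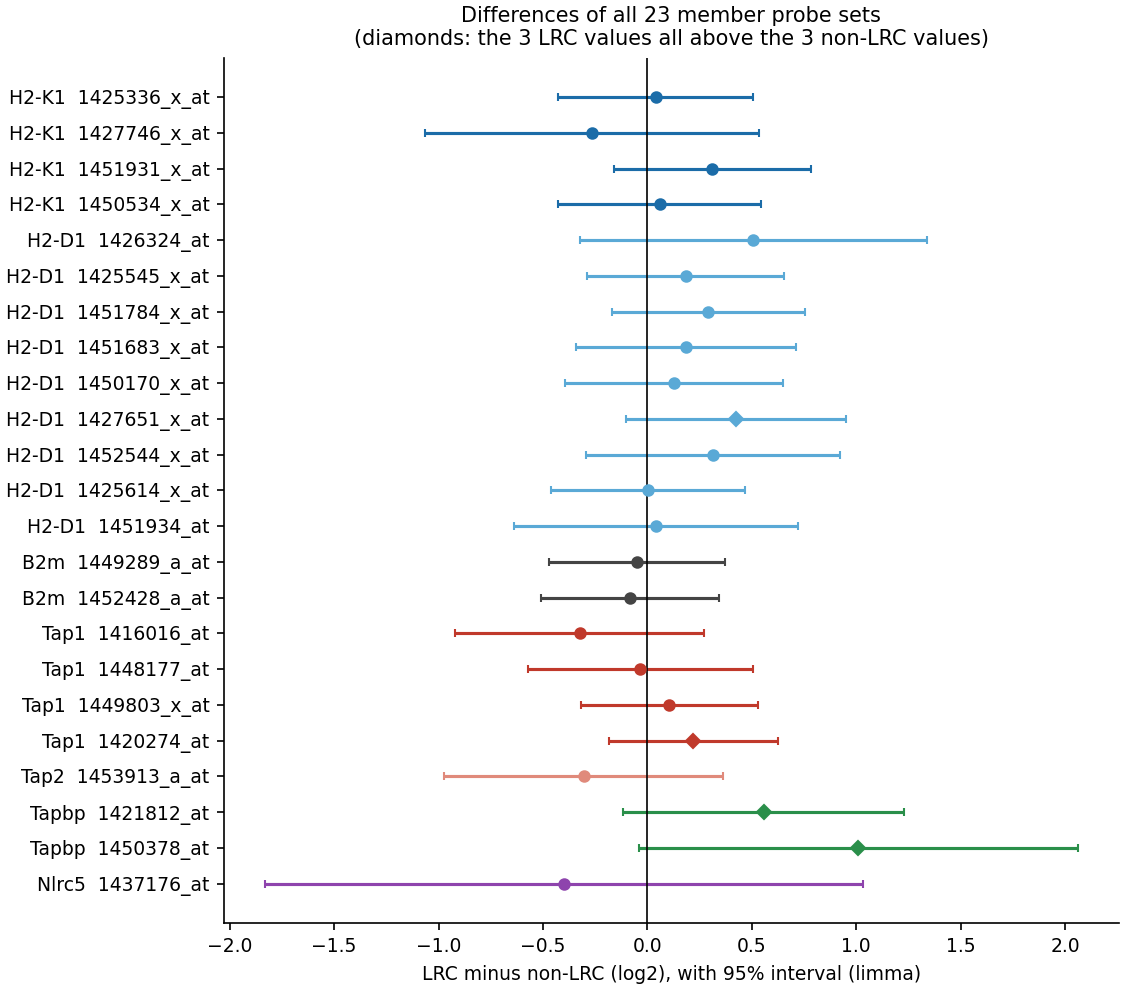
Difference between LRC and non-LRC in log2 units for each of the 23 member probe sets, with limma's 95% interval; colours mark genes and diamonds mark probe sets whose LRC values all lie above the non-LRC values. Every interval includes 0; both Tapbp probe sets, 1 of H2-D1 and 1 of Tap1 are diamonds, and the interval of Nlrc5 is the widest.

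Over the 23 probe sets, 16 had a higher mean in LRC and 7 a lower one. For 4 all LRC values lay above all non-LRC values, where 4.88% of all probe sets did, and for 0 they lay below, where 3.4% did. Of all probe sets 8.28% had groups apart in either direction. Of the 4 members 2 belong to Tapbp and 1 lies below the lower quartile of the array. The median difference was 0.10 over the members and 0.04 over all probe sets. It turned to -0.03 over the 11 members without shared probes, and was 0.04 without non-LRC 3. By gene, on the probe set of highest mean, H2-K1, H2-D1 and Tapbp had higher means in LRC, and B2m, Tap1, Tap2 and Nlrc5 lower ones. These 7 probe sets together averaged 9.52 ± 0.17 in non-LRC and 9.53 ± 0.30 in LRC (SD, n = 3), with array values of 9.33, 9.64 and 9.60 in non-LRC and 9.22, 9.82 and 9.54 in LRC. The LRC arrays included both the lowest and the highest value. The lowest, on LRC 1, rested on Nlrc5. Over the 6 other member genes the lowest array was non-LRC 1 (9.52). The difference in means was then 0.071, and the groups still overlapped.

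The genes that work beside the members in cutting, trimming and loading peptides likewise gave no call. In fixed lists of such genes and of class I regulators 43 of 54 genes had a probe set of their own, and 0 passed, with adjusted p of 0.998 to 1.00. Of these 43 genes, 3 had an unadjusted p under 0.05 (3.75% of all genes did) and 5 had groups that did not overlap (8.32% of all genes did), 4 with LRC above (4.71% of all genes) and 1 with LRC below (3.62%). A higher mean in LRC was seen in 19 of the 43 and in 54.9% of all genes, and the median difference was -0.04, against 0.03 over all genes. In single genes below, values are those of the probe set of highest mean.

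The immunoproteasome, whose subunits replace those of the standard proteasome under interferon, was measured by Psmb8, Psmb9 and Psmb10, and its activator by Psme1. Psmb10 read 7.99, 7.92 and 7.89 in non-LRC and 8.70, 8.27 and 8.18 in LRC, so its groups did not overlap; the difference was 0.45 (SE 0.21, adjusted p = 0.998). Psmb8, between Tap1 and Tap2 in the genome, differed by 0.02 (SE 0.27), with 9.02, 9.52 and 8.77 in LRC. Psmb9 read 8.93, 9.14 and 9.16 in non-LRC and 9.21, 9.53 and 7.61 in LRC; LRC 3 was low, and without it the difference of -0.29 (SE 0.50) was 0.29. Psmb9 and Tap1, whose start sites share the printed 225 bases, were both lowest on LRC 3, whereas on LRC 1 Tap1 was low and Psmb9 was not. Psme1 differed by -0.20 (SE 0.20). Of the standard subunits Psmb5, Psmb6 and Psmb7, all 3 had lower means in LRC (-0.04 to -0.45).

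Among 7 genes of peptide trimming and loading 2 had a higher and 5 a lower mean in LRC. Tapbpl, a tapasin-related peptide editor, read 4.87, 6.0 and 5.80 in non-LRC and 5.90, 6.51 and 6.51 in LRC, a difference of 0.75 (SE 0.36). The sign was opposite on its second probe set. Calr, the calreticulin of the loading complex, differed by 0.30 (SE 0.27). Canx, the calnexin that folds new heavy chains, read 9.28, 9.44 and 8.93 in non-LRC and 8.52, 9.06 and 8.46 in LRC, a difference of -0.54 (SE 0.25). Of the 2 other Canx probe sets 1 had the same sign. Erap1, which trims peptides to length, differed by -0.62 (SE 0.31) and Pdia3, the disulfide isomerase joined to tapasin, by -0.24 (SE 0.23). The groups overlapped in all 7 genes.

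Of 17 non-classical class I and class I-like genes 9 had a probe set of their own, and 4 had a higher and 5 a lower mean in LRC. Fcgrt, the heavy chain of the neonatal Fc receptor, which also pairs with B2m, read 5.83, 5.84 and 5.53 in non-LRC and 6.13, 6.35 and 7.52 in LRC. Its groups did not overlap, and the difference was 0.94 (SE 0.39, unadjusted p = 0.0498, adjusted p = 0.998) or 0.51 without LRC 3. Cd1d1, which presents lipids, read 7.82, 8.09 and 8.06 in non-LRC and 8.27, 8.78 and 8.12 in LRC, a difference of 0.40 (SE 0.24). The other 7 differed by -0.43 to 0.26.

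Among 20 measured genes of class I transcription and interferon signalling 11 had a higher and 9 a lower mean in LRC. Irf1, an interferon-induced activator that binds class I promoters, read 7.58, 7.59 and 7.67 in non-LRC and 7.91, 8.48 and 8.03 in LRC. Its groups did not overlap, and the difference was 0.53 (SE 0.21, unadjusted p = 0.0471, adjusted p = 0.998). Irf2 read 5.88, 7.03 and 7.05 in non-LRC and 8.62, 7.62 and 6.78 in LRC, a difference of 1.02 (SE 0.55), or 0.55 without LRC 1.

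The RFX complex binds the X box that Nlrc5 needs. Rfxap read 7.19, 6.70 and 6.99 in non-LRC and 5.48, 5.89 and 6.30 in LRC, with groups that did not overlap, and its other probe set had the same sign. The difference was -1.07 (SE 0.27, interval -1.73 to -0.41, unadjusted p = 0.00705), the lowest unadjusted p of these 43 genes, and it did not pass (adjusted p = 0.998). The mean over the Rfxap probe sets differed by -0.64. Rfx5 differed by 0.23 (SE 0.32), and Rfxank by -1.17 (SE 0.91). The Rfxank value was set by non-LRC 2 at 8.5, since the other 5 arrays read 4.90 to 5.46 and the difference without it was -0.06. Of the 2 other Rfxank probe sets 0 had the same sign, and the mean over its probe sets differed by -0.21.

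**Figure D4:**
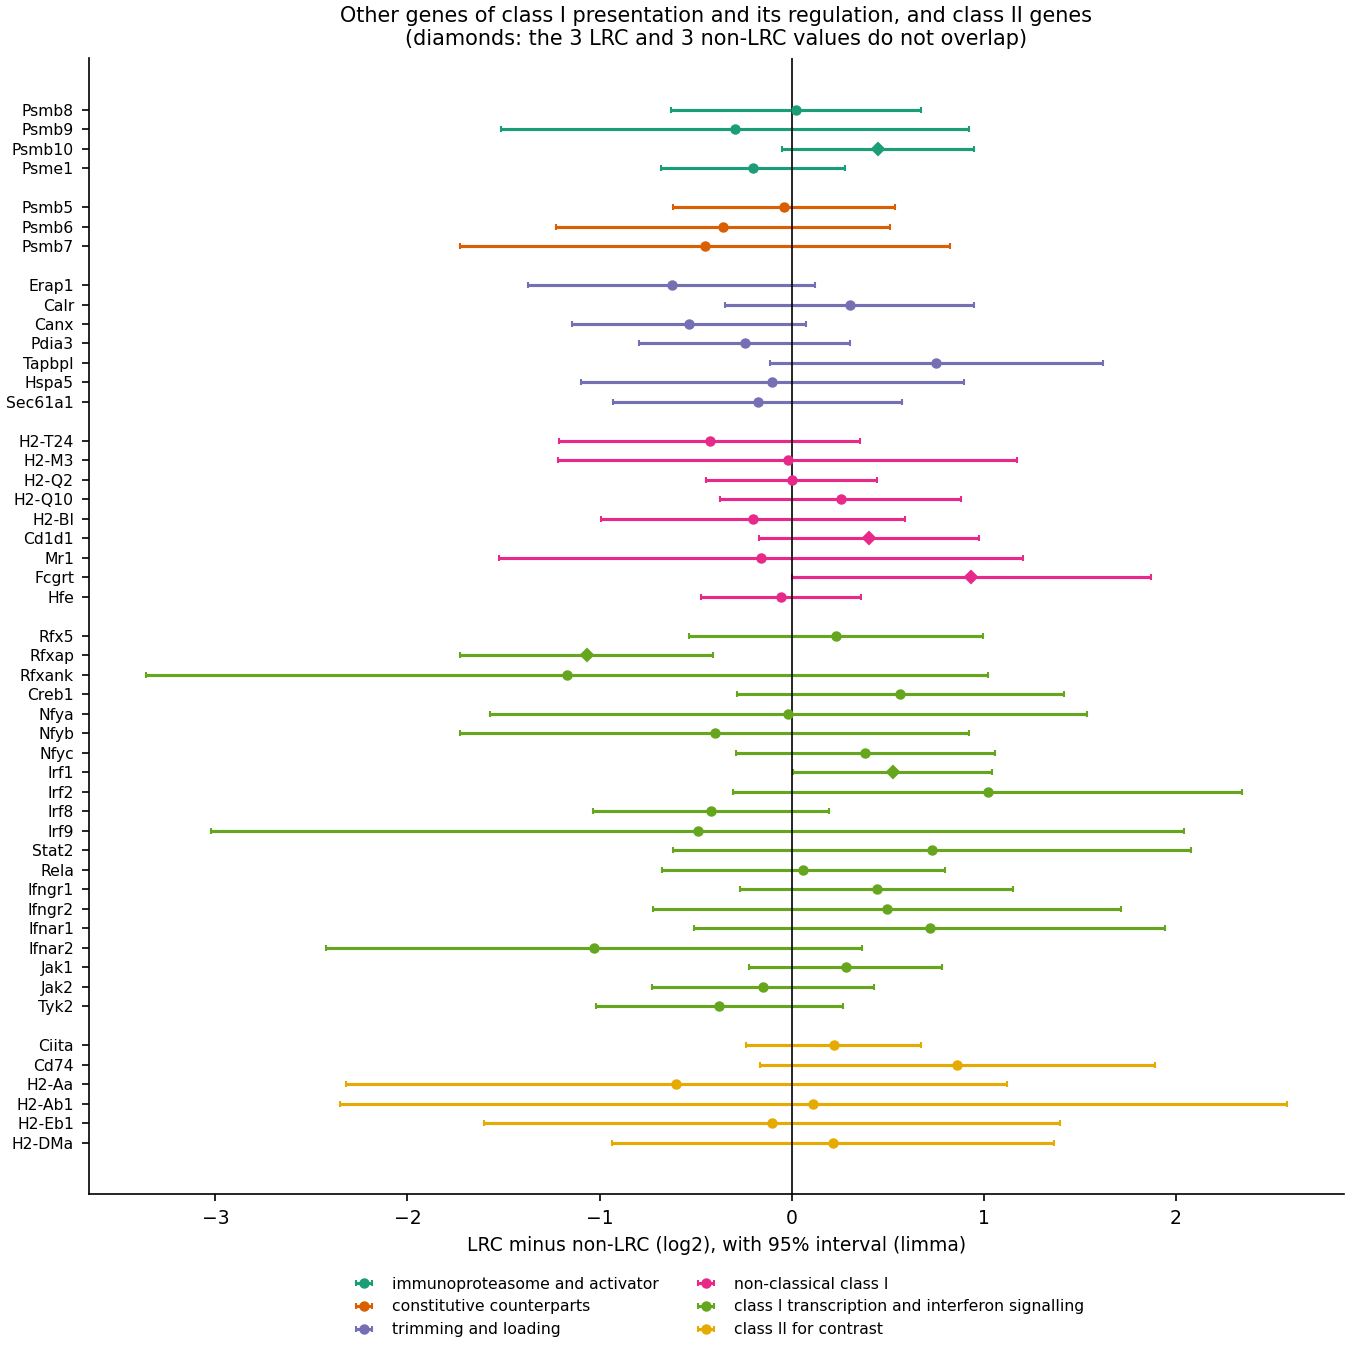
Difference between LRC and non-LRC in log2 units with limma's 95% interval for 43 other genes of class I presentation and its regulation and for 6 class II genes, 1 probe set a gene; diamonds mark genes whose groups do not overlap. Most intervals include 0, and those of Rfxap, Irf1 and Fcgrt do not, although none passed after adjustment.

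MHC class II genes, which professional antigen-presenting cells use, were compared as a contrast. Of 6 measured genes 4 had a higher and 2 a lower mean in LRC, all with overlapping groups. Their within-group SD had a median of 0.80, against 0.34 over the 7 class I members, with 1 probe set a gene in both. It ran from 0.15 (Ciita) to 1.55 (H2-Ab1) in the class II genes. Levels differed too, at averages of 4.57 to 6.98 for class II and 6.45 to 12.41 for the class I members. The part of signal level in the spread was not tested. H2-Ab1, a class II beta chain, read 7.20, 7.48 and 6.09 in non-LRC and 4.67, 7.94 and 8.48 in LRC. Markers of T cells, B cells, natural killer cells, macrophages and dendritic cells were mostly dim. Averages lay below the array median for 4 of 6 T cell, 4 of 5 B cell and 3 of 3 natural killer cell genes. They did so for 5 of 7 macrophage and dendritic cell genes and 3 of 4 stromal genes. Endothelial (1 of 5), erythroid (1 of 3) and megakaryocyte (0 of 3) genes were mostly not dim. Lower means in LRC were seen for 4 of 5 endothelial, 3 of 3 megakaryocyte, 2 of 3 erythroid and 1 of 4 stromal genes. For every endothelial and megakaryocyte gene the groups overlapped. The mean level of the T cell list was 3.39 to 3.84 in LRC and 3.49 to 3.69 in non-LRC, and that of the macrophage and dendritic cell list 3.47 to 3.99 and 3.48 to 3.76. The mean level of the neutrophil list was 4.82 to 5.49 in LRC and 5.19 to 6.67 in non-LRC, non-LRC 1 being the highest. Of its 6 genes 2 averaged below the array median. Mpo was bright on all arrays except LRC 1, at 9.02, 8.53 and 7.57 in non-LRC and 4.03, 8.69 and 9.20 in LRC. The part of such cells in the member values was not tested, and in bulk samples fewer cells of a type and less RNA per cell cannot be told apart.

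The genes whose pattern over the 6 arrays was most like the mean of the 7 members were Arap2, Pagr1a, Pkd1, Zmat2 and Hmgcs1. Likeness was the root mean square difference between profiles scaled to their own SD, and it ran from 0.13 to 0.19 SD for these 5 of 12448 candidate genes. Arap2, an Arf GTPase-activating protein, read 3.53, 5.12 and 4.71 in non-LRC and 2.57, 5.74 and 4.34 in LRC. It was low on LRC 1 and high on LRC 2 as the member mean was. The low LRC 1 level of the member mean rested on Nlrc5. Over the 6 other member genes LRC 1 (9.66) lay above non-LRC 1 (9.52). With 6 arrays, 36 candidates came within 0.3 SD, and 0 of the members themselves did: they lay from 0.48 (H2-K1) to 1.27 SD (H2-D1) from their own mean. The members did not share 1 pattern across arrays.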

How the data were processed

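RNA of 3 LRC and 3 non-LRC samples was amplified in 2 rounds (NuGEN WT-Ovation Pico), biotin-labelled and hybridized to 1 Affymetrix array per sample, per the labels' protocols. The deposited values are log2 expression per probe set; the submitters' processing notes name RMA (background correction, quantile normalization, probe summary) and give its version nowhere. No label states the base of the logarithm. Base 2 was assumed from the name RMA and from the values, which span 1.22 to 14.0. Quantile normalization hides a change of total RNA per cell. Precision is limited by the number of arrays.

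Of 45101 probe sets 64 controls were left out. In the platform annotation 34945 named 1 gene, 932 several and 9160 none; symbols of the lists were updated by gene identifier to RefSeq (GRCm38.p6). Columns of other samples numbered 0. The comparison of LRC with non-LRC used limma 3.58.1 (lmFit, eBayes, no covariate; R 4.3.3), with Benjamini-Hochberg adjustment over all 45037 probe sets and a threshold of 0.05; the script was tested on simulated data. Errors are SD over samples or limma's moderated SE. Promoter windows were searched in the 250 upstream bases, and aligned with Biopython 1.88. Members and gene lists were chosen with earlier results of these data known. The rule for named genes took all members and the fixed pathway lists; which list genes are given with values was chosen after their values were seen. Genes without a probe set of their own are not analysed here.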

Additional observations from a re-analysis of the deposited data

How the results depend on the processing

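Under the settings tried limma called 0 member probe sets, and the 0 calls over all probe sets and over the pathway genes became 774 and 1 (Rfxap) only where an unadjusted p under 0.05 with a 2-fold change replaced the adjusted one (members 0). Of 349 recomputed member differences 312 kept their sign and 37 turned. Among the 19 settings, changes of threshold and the omission of shared probes recompute no difference. Dropping dim probe sets, trend and robust moderation and the replicate block leave each difference as it was. Signs kept under those settings were therefore fixed in advance. The sign held throughout for 11 of the 23 probe sets, among them both of Tapbp (0.36 to 0.96 and 0.60 to 1.27). The median difference of the members ran from 0.04 to 0.16 with 1 array left out and was -0.03 without probe sets of shared probes. The mean of the 7 member genes (0.0033) ran from -0.14 to 0.16 with 1 array left out. Adding the hybridization control level to the fit gave 0.33, and 0.29 came with LRC 2 as the single LRC array, assumed to vary like the others; the cause was not tested.

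With the control covariate signs turned for Tap1 1416016_at (0.029), Tap2 1453913_a_at (0.033), Nlrc5 1437176_at (0.61), B2m 1449289_a_at (0.060) and 1452428_a_at (0.0037), H2-K1 1427746_x_at (0.26) and 1450534_x_at (-0.066), H2-D1 1425614_x_at (-0.21), 1451934_at (-0.39) and 1452544_x_at (-0.059), and Psmb9 1450696_at (0.0011). With LRC 2 alone they turned for Tap1 1416016_at (0.12), Tap2 1453913_a_at (0.047), Nlrc5 1437176_at (0.33), B2m 1449289_a_at (0.058), H2-K1 1427746_x_at (0.29), H2-D1 1425614_x_at (-0.20), 1451934_at (-0.28) and 1452544_x_at (-0.040), and Psmb9 1450696_at (0.45). Small values also turned under quantile normalization again (Tap1 1448177_at to 0.0065, H2-D1 1451934_at to -0.0056), median centring (H2-D1 1425614_x_at to -0.0047), array weights (H2-D1 1425614_x_at to -0.021 and 1451934_at to -0.051, Psmb8 1422962_a_at to -0.039), the 3' minus 5' signal of Actb and Gapdh as a covariate (H2-D1 1425614_x_at to -0.052 and 1451934_at to -0.086) and averaging a gene's probe sets (Psmb8 to -0.052).

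With single arrays left out, values that turned ran from -0.055 to 0.14 (H2-K1 1425336_x_at), -0.54 to 0.022 (1427746_x_at), -0.036 to 0.16 (1450534_x_at), -0.11 to 0.10 (H2-D1 1425614_x_at), -0.24 to 0.20 (1451934_at), -0.77 to 0.30 (Nlrc5), -0.20 to 0.12 (Tap1 1448177_at), -0.10 to 0.0051 (B2m 1449289_a_at), -0.19 to 0.19 (Psmb8), -0.67 to 0.29 (Psmb9) and -0.021 to 0.54 (Rfx5).

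The labels number the replicates 1 to 3 in both groups without a stated pairing. Deviations of same-numbered samples correlated at 0.08, 0.14 and 0.08 across probe sets, each sample best with its own number. Those of differently numbered samples correlated at -0.09 to -0.01. Only 1 pair was over 0.1. With the replicate block 0 probe sets were called (2017 at an unadjusted p under 0.05, against 1673 without it). The block left every difference as it was, and 1 member, Tapbp on 1421812_at (0.56), had an unadjusted p under 0.05 with an adjusted p of 0.929. Single members were also under 0.05 unadjusted with the control covariate (the same Tapbp probe set), without non-LRC 3 or LRC 3 (Tapbp 1450378_at) and without LRC 2 (Tap1 1416016_at), so that 5 alternative fits had 1 such member each and 0 had more.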

Other observations

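A further 3 probe sets hold H2-K1 or H2-D1 together with other symbols and are outside the counts above. The probe set that names H2-K1 and H2-D1 together, 1424948_x_at, read 8.62, 8.88 and 8.45 in non-LRC and 8.35, 8.96 and 8.59 in LRC, a difference of -0.02 (SE 0.24). The one shared by H2-Q5 and H2-K1 differed by -0.10 (SE 0.41), and the one shared by Gm38417, H2-Q2 and H2-D1 by -0.07 (SE 0.18). All 3 had lower means in LRC with overlapping groups, whereas 12 of the 13 probe sets of H2-K1 or H2-D1 alone had higher means.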
